A study of Mus musculus with 38 samples.

Results

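The 98 genes described here carry the symbols of subunits of the 5 complexes of oxidative phosphorylation. They were selected from the 55487 genes counted in mouse kidney RNA by a rule on gene symbols alone. The set holds 85 nuclear genes and 13 genes of the mitochondrial genome. By complex there are 43 genes of complex I (Nduf and mt-Nd symbols), 4 of complex II (Sdh), 9 of complex III (Uqcr and mt-Cytb), 22 of complex IV (Cox and mt-Co) and 20 of complex V (Atp5 and mt-Atp). Subunits with other symbols, such as Ndufab1 and Cyc1, and the electron carrier cytochrome c (Cycs) are outside the set.

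Complexes I and II pass electrons from NADH and succinate to ubiquinone, complex III passes them to cytochrome c, and complex IV passes them to oxygen. Complexes I, III and IV pump protons, and complex V, the ATP synthase, uses the gradient to make ATP. The mitochondrial genome encodes a few core subunits of every complex except complex II and is transcribed as long precursors by its own polymerase, whereas all other subunits are made from nuclear mRNAs. The proximal tubule, which reabsorbs most of the filtered load, is among the cell types richest in mitochondria.

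The 38 libraries fell into 10 groups from 3 experiments, and FGF23 was recombinant human hormone throughout. In the first experiment, male C57BL/6JRj mice of 10 weeks either had anti-GBM disease, a nephritis set off by nephrotoxic serum after immunisation with sheep IgG in Freund's adjuvant, or were healthy controls given PBS. They received FGF23 or vehicle for 6 days, which gave 4 healthy vehicle, 4 anti-GBM vehicle, 3 healthy FGF23 and 3 anti-GBM FGF23 libraries. In the second, female BALB/c mice of 10 weeks had Adriamycin nephropathy or were healthy controls and were sampled 24 h after 1 injection of FGF23 or vehicle, with 4 libraries in each of the 4 groups. In the third, precision-cut kidney slices (PCKS) from male DBA/2J mice of 23 weeks with adenine nephropathy were treated with FGF23 or vehicle in culture, with 4 libraries each, and there were no disease-free slices. Sources conflict on the treatment time of the slices, which is 1 h in the labels and 24 h in other descriptions of the experiment, so the exposure behind the slice values is uncertain. Strain, sex, disease and experiment cannot be told apart between experiments, so tests were made only within each.

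Total counts ranged from 13704248 to 23630210 in the anti-GBM experiment, from 15665050 to 27583911 in the Adriamycin experiment and from 11186925 to 16254987 in the slices. Libraries NTS7, NTS13 and F1 stood apart, and counts or medians without each are given below. Library NTS7 (anti-GBM, vehicle) had 17157 CPM (counts scaled to the library's total) summed over the nuclear members. The other libraries of its group had 21395 to 23517 CPM. NTS7 also had the lowest summed proximal tubule markers of the anti-GBM experiment, 18590 CPM, and the highest summed tubular injury markers, 18074 CPM. Library NTS13 (anti-GBM, FGF23) had the lowest sums of that experiment on both genomes, 15558 CPM over the nuclear and 58993 CPM over the mitochondrial members. Library F1 (slices, FGF23) had 3.67% of its counts on the mitochondrially encoded genes against 1.70% to 1.88% in the other FGF23 slices. Proximal tubule markers were far lower in the slices, 652 to 1322 CPM summed, than in the kidneys of either experiment, where every library had at least 17070 CPM.

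Of the 13 mitochondrially encoded genes, 6 had at least 9200 counts in every library (mt-Nd1, mt-Nd2, mt-Nd4, mt-Nd5, mt-Cytb and mt-Co1), and mt-Nd6 had 110 to 2929. The counts of mt-Co2, mt-Co3, mt-Atp6, mt-Atp8, mt-Nd3 and mt-Nd4l stayed between 0 and 303 in all 38 libraries. For 5 of these, over 90% of all 58-base windows, the length of 1 read, recur in annotated transcripts of other genes, mostly unprocessed pseudogenes on chromosome 1. That held for all 627 windows of mt-Co2 (chrM:7013-7696) and for 99.9% of those of mt-Co3, 99.5% for mt-Atp6, 98.8% for mt-Nd4l and 97.9% for mt-Nd3 (chrM:9459-9806). The share was 62.0% for mt-Nd4, 47.4% for mt-Co1 and 0.0% for mt-Nd1, mt-Nd6, mt-Cytb and mt-Atp8. Only annotated transcripts were searched, so a share of 0.0% does not show that a sequence is unique in the genome. This matters for mt-Atp8 (chrM:7766-7969), which lies between mt-Co2 and mt-Atp6 and had 0 to 35 counts. How reads with more than 1 match were assigned is not given in the sources used here, so levels of the 5 genes are uncertain and are not compared with other genes. The first 60 bases of 2 of these genes and of their chromosome 1 copies are shown, from the GENCODE M21 transcripts of GRCm38, to let the likeness be seen, with bases that differ within a pair in capitals.
mt-Nd3: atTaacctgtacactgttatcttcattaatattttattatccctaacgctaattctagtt
Gm28438: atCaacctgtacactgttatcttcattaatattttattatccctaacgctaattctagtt
mt-Co2: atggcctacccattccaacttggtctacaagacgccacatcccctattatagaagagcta
Gm28661: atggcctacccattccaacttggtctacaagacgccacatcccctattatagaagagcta
Over the 345 bases compared, mt-Nd3 and Gm28438 differed at 1 base, T3C counted from the first base of the transcript. No base differed between mt-Co2 and Gm28661 over 681 bases. The pair mt-Nd3 and Gm28438 split by experiment: mt-Nd3 had 35 to 185 counts and Gm28438 12 to 44 in the C57BL/6JRj libraries, whereas mt-Nd3 had 0 to 6 and Gm28438 93 to 260 in the BALB/c libraries. In the DBA/2J slices mt-Nd3 had 0 to 1 counts and Gm28438 4 to 20. Levels of mt-Nd3 are therefore not compared between strains.

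Levels between genes are compared per exon length, as TPM (transcripts scaled to the library's total) computed from the counts. In healthy vehicle-treated C57BL/6JRj kidney, each of the 6 well-counted mitochondrial genes was above every nuclear member. The highest means there were 61631 TPM for mt-Co1, the catalytic core of complex IV, and 58881 TPM for mt-Cytb, the mitochondrial subunit of complex III, followed by mt-Nd1 at 44742 TPM. mt-Nd6, the only member encoded on the other strand of the mitochondrial genome, had 618 TPM. The highest nuclear genes were the ATP synthase beta and alpha subunits, Atp5b at 1902 TPM and Atp5a1 at 1784 TPM, and the small complex IV subunits Cox8a at 1538 TPM and Cox6a1 at 1500 TPM. The median over the nuclear members was 227 TPM in complex I, 455 TPM in complex II, 463 TPM in complex III, 189 TPM in complex IV and 218 TPM in complex V. The 19 nuclear members of complex IV include tissue-restricted isoforms with few or no counts. They also include Cox6c2, which is annotated as a processed pseudogene. Such entries lower the median, so the complexes are not ranked by it. Atp5b was also the highest nuclear gene in healthy BALB/c kidney (2474 TPM), while Cox8a led in the vehicle slices (1003 TPM, with Atp5b at 966 TPM). Cox8c and 1 of 2 genes with the symbol Atp5o had no count in any library, and Cox7b2 had at most 1.

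The share of all counts on the 13 mitochondrially encoded genes was 11.4% ± 0.43 (SD, n = 4) in healthy vehicle-treated C57BL/6JRj kidneys and 8.10% ± 0.45 (n = 4) in anti-GBM vehicle kidneys. Under FGF23 it was 10.1% ± 0.51 (n = 3) in healthy and 7.26% ± 0.51 (n = 3) in anti-GBM kidneys. The highest anti-GBM library (8.59%) was below the lowest healthy one (9.58%). Over the same libraries the share on the 85 nuclear genes was 1.97% ± 0.050, 2.16% ± 0.22, 2.01% ± 0.081 and 1.96% ± 0.17, with overlapping ranges. In the Adriamycin experiment the 4 group means of the mitochondrial share lay between 8.76% and 9.03% and those of the nuclear share were all at or above 2.16%. The slices were lowest on both, at 1.83% ± 0.22 and 0.765% ± 0.026 with vehicle and 2.25% ± 0.95 and 0.873% ± 0.21 with FGF23, where F1 alone lay above the vehicle range for the mitochondrial share.

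**Figure D1:**
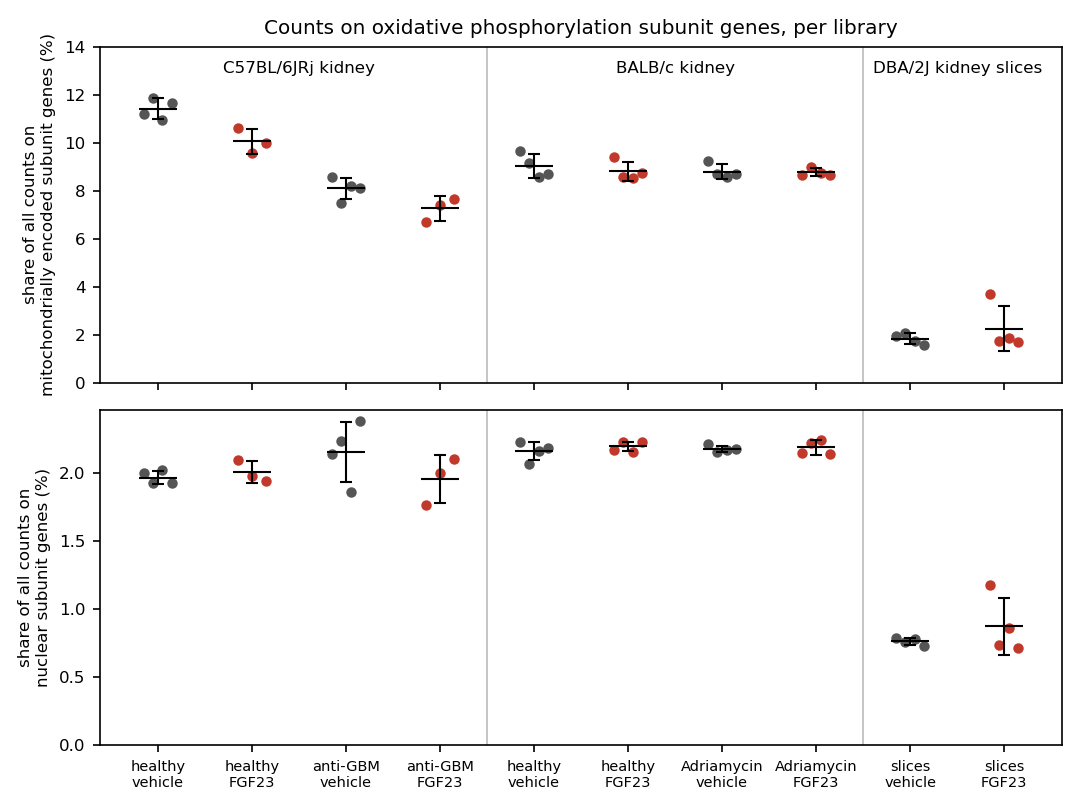
Share of all counts (%) on the 13 mitochondrially encoded (top) and 85 nuclear (bottom) subunit genes, 1 point per library, with group mean and SD; vehicle grey, FGF23 red. Anti-GBM kidneys lie below healthy kidneys on the mitochondrial share (at most 8.59% against at least 9.58%) and overlap them on the nuclear share, and slice library F1 lies at 3.67%.

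In anti-GBM disease against healthy kidney, averaged over vehicle and FGF23, all 13 mitochondrially encoded genes were lower (adjusted p under 0.05, edgeR quasi-likelihood test over 15859 genes). Their median log2 fold change was -0.83, against -0.02 over all genes tested and 0.00 over the 81 nuclear members tested. That median includes the low-count mitochondrial genes. With at least 10 counts required in every library, it was -0.69 over the 11 mitochondrial genes then tested. Counting both genomes, 24 of 94 tested members were lower and 1 was higher. Since 24.7% of all tested genes were called lower and 23.6% higher in this comparison, the total of lower members (25.5%) was near the background. The lower ones were 13 of 13 mitochondrial and 11 of 81 nuclear members (13.6%). In bulk RNA, fewer cells of a type and less RNA per cell cannot be told apart.

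mt-Nd5, a proton-pumping core subunit of complex I, had 16981, 20608, 15372 and 18792 CPM in the healthy vehicle kidneys and 14508, 12875 and 13963 CPM in the healthy FGF23 kidneys. It had 9972, 8023, 8828 and 7715 CPM in anti-GBM vehicle and 7583, 8219 and 8217 CPM in anti-GBM FGF23 kidneys. All 7 diseased libraries lay below all 7 healthy ones, and the log2 fold change was -0.92 ± 0.093 (SE, adjusted p = 3.7e-06).

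mt-Co1 (chrM:5328-6872) had 35933, 39510, 35404 and 39667 CPM in healthy vehicle and 36418, 30895 and 33230 CPM in healthy FGF23 kidneys. Its values were 28173, 23606, 25364 and 25176 CPM in anti-GBM vehicle and 19989, 23759 and 25243 CPM in anti-GBM FGF23 kidneys. The groups again did not overlap, with a log2 fold change of -0.55 ± 0.093 (adjusted p = 2.6e-04). The other well-counted genes were lower by similar amounts, mt-Nd2 at -0.86 ± 0.10, mt-Nd4 at -0.64 ± 0.086, mt-Cytb at -0.61 ± 0.089 and mt-Nd1 at -0.59 ± 0.097 on the log2 scale.

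Among these, mt-Nd1 overlapped by 1 pair of libraries, since the lowest healthy value was 11798 CPM (NTS10, FGF23) and the highest diseased one 11932 CPM. mt-Nd6 had 108, 139, 126 and 135 CPM in healthy vehicle kidneys but 80.7, 50.6 and 70.8 CPM in healthy FGF23 kidneys. The latter overlapped with the anti-GBM libraries at 64.0 to 80.4 CPM with vehicle and 35.6 to 70.9 CPM with FGF23, and the averaged disease difference was -0.54 ± 0.14 (adjusted p = 0.0052). In all, 6 of 13 mitochondrial and 3 of 81 nuclear members had every diseased library below every healthy one, against 9.81% of all genes tested.

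The 6 low-count genes gave log2 fold changes from -0.73 (mt-Co3) to -1.63 (mt-Nd4l), with adjusted p from 9.1e-06 to 0.0030. Without the 5 whose windows recur elsewhere, 19 members were lower. With library sizes taken without the mitochondrial genes all 13 were still called lower, with a median of -0.80.

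**Figure D2:**
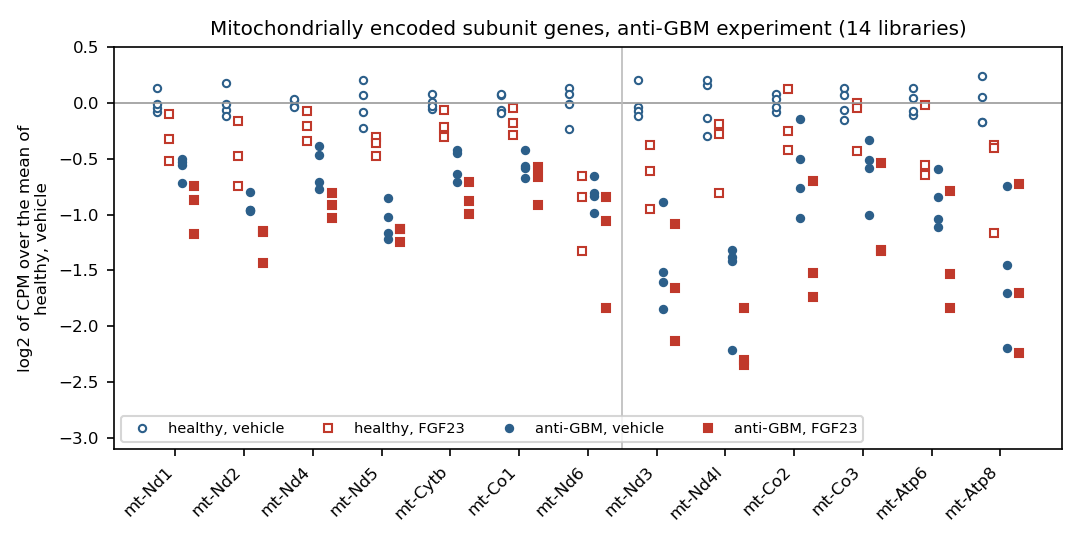
Log2 of CPM over the mean of the healthy vehicle libraries for the 13 mitochondrially encoded genes in the 14 libraries of the anti-GBM experiment; open symbols healthy, filled symbols anti-GBM, circles vehicle, squares FGF23. Genes right of the vertical line are the 6 with 0 to 303 counts; among those left of it, mt-Nd2, mt-Nd4, mt-Nd5, mt-Cytb and mt-Co1 show no overlap between healthy and diseased kidneys.

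Of the 81 nuclear members tested in this comparison, 11 were lower, 1 was higher and 69 did not pass the test. In complex I the lower genes included Ndufs1, the largest iron-sulphur subunit (-0.43 ± 0.073), Ndufv1, which carries the NADH-binding flavin (-0.21 ± 0.075), and the accessory subunits Ndufa10 (-0.25 ± 0.086) and Ndufa9 (-0.20 ± 0.073). In complex II it was Sdha, the flavoprotein that oxidises succinate (-0.38 ± 0.067), and in complex III the core protein Uqcrc2 (-0.29 ± 0.075) and the Rieske iron-sulphur protein Uqcrfs1 (-0.25 ± 0.091). In complex V they were the catalytic beta subunit Atp5b (-0.27 ± 0.074), the alpha subunit Atp5a1 (-0.22 ± 0.073) and the coupling factor B gene Atp5s (-0.47 ± 0.077). No nuclear subunit of complex IV was called lower. The number of lower nuclear members depended on single libraries: it was 5 without any of NTS1, NTS2, NTS3, NTS4, NTS9, NTS11 or NTS13, 6 without NTS5 or NTS14, 10 without NTS7 and 16 without NTS16.

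Ndufs1 (chr1:63143596-63176833, minus strand) had 358, 386, 373 and 369 CPM in healthy vehicle and 387, 337 and 351 CPM in healthy FGF23 kidneys. In anti-GBM kidneys it had 320, 301, 238 and 276 CPM with vehicle and 228, 269 and 278 CPM with FGF23, all below the healthy range. Sdha (chr13:74322254-74350280, minus strand) had 989, 1055, 1037 and 1050 CPM and 1078, 930 and 938 CPM in the same healthy groups. Its anti-GBM values, 888, 834, 730 and 812 CPM with vehicle and 655, 771 and 781 CPM with FGF23, also lay below the healthy range. Atp5s was the third nuclear gene without overlap (14.1 to 15.7 CPM in healthy, 8.70 to 12.2 CPM in diseased libraries).

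The only higher member was Cox6b2, the testis-type isoform of a complex IV subunit (chr7:4751792-4753094, minus strand). It had 3.00, 3.33, 2.90 and 4.37 CPM in healthy vehicle and 3.19, 4.04 and 2.51 CPM in healthy FGF23 kidneys. The anti-GBM values were 5.52, 5.60, 8.53 and 7.99 CPM with vehicle and 5.72, 6.31 and 6.73 CPM with FGF23, all above the healthy ones. Its log2 fold change was 0.98 ± 0.15 (adjusted p = 1.2e-04) on 36 to 166 counts per library. The widely expressed isoform Cox6b1 had 248 to 422 CPM in the same libraries and did not pass the test.

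By complex, the medians of the nuclear members were -0.02 in complex I (5 of 36 lower), -0.20 in complex II (1 of 4), 0.01 in complex III (2 of 8), 0.09 in complex IV (0 of 16) and -0.01 in complex V (3 of 17). Within complex I, 3 of the 7 nuclear core subunits and 2 of the 29 accessory subunits were lower, with a median of -0.02 in each. Complexes were assigned by symbol alone, which counts Ndufa4 among the accessory subunits of complex I.

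**Figure D3:**
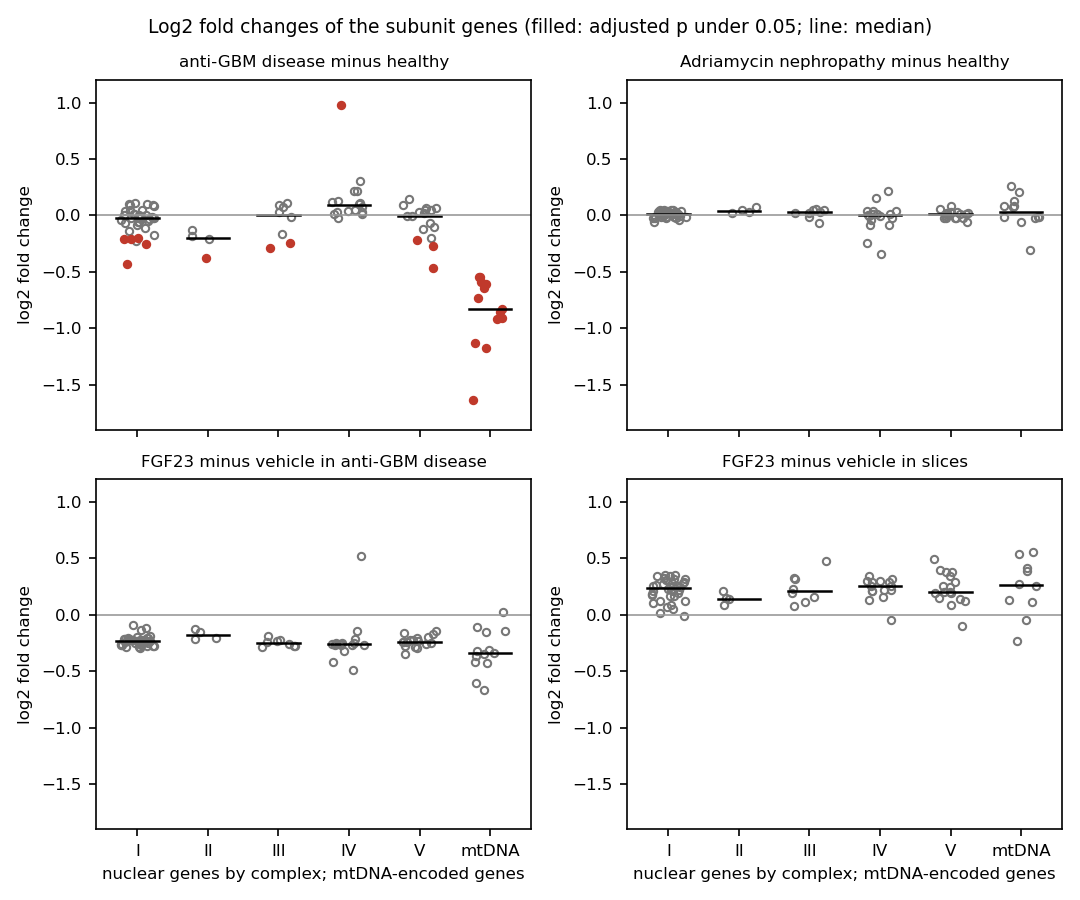
Log2 fold change of each tested subunit gene in 4 comparisons, with nuclear genes split by complex I to V and mitochondrially encoded genes (mtDNA) in the last column; filled points have an adjusted p under 0.05 and lines are medians. In anti-GBM disease the mtDNA column, low-count genes included, has a median of -0.83 and the nuclear columns lie between -0.20 and 0.09. No point is filled in the other 3 comparisons.

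The size of the 11 lower nuclear members was above that of the rest: their exon length ran from 1363 to 8086 bases with a median of 2634, against 1465 bases over the 69 that did not pass. Of the nuclear members with 1500 or more exon bases, 10 of 42 were lower (23.8%), against 25.9% of all nuclear genes of that length. Below 1500 bases it was 1 of 39 (2.56%), against 14.7% of all such genes. Over the 81 nuclear members the log2 fold change ran against exon length with Spearman's rho = -0.47, a description across genes of the same 14 libraries, and over all 15820 nuclear genes rho was -0.10. The mitochondrial genes, 204 to 1824 bases long, were all lower. The part of transcript length in these values was not tested.

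**Figure D4:**
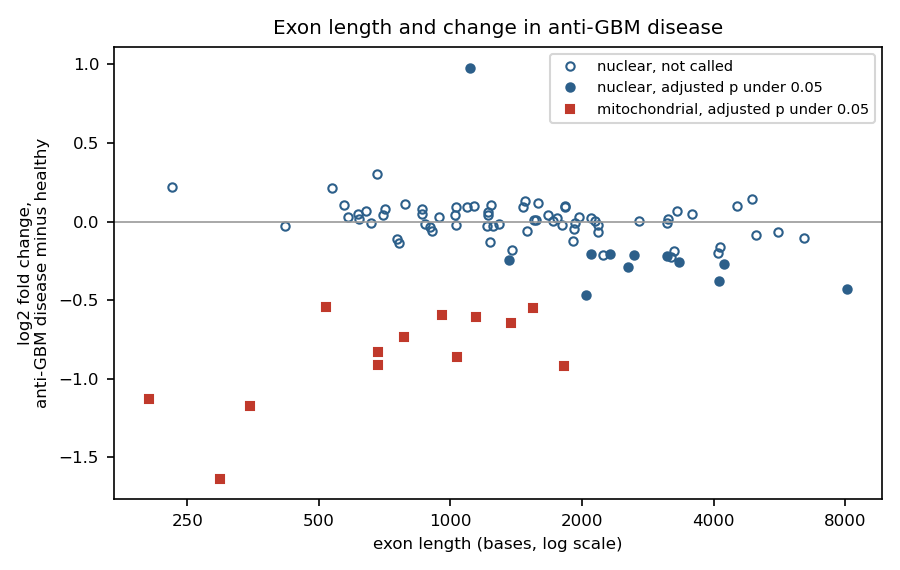
Log2 fold change in anti-GBM disease against exon length in bases (log scale) for the 94 tested subunit genes; circles nuclear, squares mitochondrially encoded, filled where the adjusted p was under 0.05. The 11 lower nuclear genes sit at 1363 bases or more, and the 13 mitochondrial genes sit below all of the nuclear genes, none above -0.54.

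Cell type markers moved with the same comparison. Of 14 proximal tubule markers, 12 were lower (median -0.70), for example Lrp2, the megalin receptor (-0.57), and Slc34a1, a phosphate transporter (-0.54). Their sum was 42727 to 55560 CPM in healthy and 18590 to 40771 CPM in diseased libraries. Of 12 leukocyte markers 11 were higher and 1 was lower, and all 6 fibroblast and all 6 tubular injury markers were higher. The loop and distal tubule markers (1 of 7 lower), collecting duct markers (2 higher and 1 lower of 7), podocyte markers (0 of 4) and endothelial markers (2 of 5 lower) moved less. The part of these cell types in the subunit genes was not tested. The share of counts on the 2 mitochondrial ribosomal RNAs, which are poorly captured by poly(A) selection, was 0.120% to 0.175% in healthy vehicle, 0.0888% to 0.124% in healthy FGF23, 0.128% to 0.149% in anti-GBM vehicle and 0.121% to 0.174% in anti-GBM FGF23 libraries.

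Genes that make or feed the complexes are given for comparison. Of 23 genes of mitochondrial transcription and biogenesis, 12 were lower and 1 was higher. The lower ones include Tfam, which packages and helps transcribe mitochondrial DNA (-0.41 ± 0.056, adjusted p = 3.9e-05), Tfb2m (-0.40 ± 0.076) and the elongation factor Tefm (-0.38 ± 0.074), the mitochondrial RNA polymerase Polrmt (-0.19 ± 0.056) and Lrpprc, which stabilises mitochondrial mRNAs (-0.20 ± 0.070). Among regulators of nuclear subunit genes, Gabpa (-0.70 ± 0.088) and Ppargc1b (-0.75 ± 0.11) were lower and Pprc1 was higher (0.65 ± 0.13). Ppargc1a (-0.10, adjusted p = 0.38), Esrra (-0.17, adjusted p = 0.095) and Nrf1 (0.14, adjusted p = 0.11) did not pass.

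Of 45 assembly factors tested, 17 were lower and 2 higher (median -0.18), with Cox15, which makes haem a for complex IV, at -0.54 ± 0.058. Of 18 tricarboxylic acid cycle genes 12 were lower and none higher (median -0.26), led by Dld, the E3 subunit of the dehydrogenase complexes (-0.45 ± 0.067). Of 77 mitochondrial ribosomal protein genes 14 were lower and 4 higher (median -0.04). Of 15 glycolysis genes 7 were higher and 1 lower, with hexokinase 2 (Hk2) at 2.17 ± 0.31. None of the 4 tested subunit and carrier genes outside the symbol rule passed (Ndufab1, Cyc1, Cycs and Ndufa4l2, adjusted p from 0.26 to 0.89). Atpif1, the ATP synthase inhibitor, also did not pass (0.08 ± 0.083, adjusted p = 0.44). Of adipocyte markers 1 was higher and 2 lower of 5, no erythroid marker of 5 passed, and 1 muscle marker was tested and was lower.

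The disease difference was also read within each treatment, in comparisons that share their libraries with the averaged one. With vehicle alone, 16 members were lower and 2 higher, against 20.4% and 19.4% of all genes. All 13 mitochondrial genes were among the lower ones (median -0.82), with Ndufs1, Sdha and Atp5s, and the higher ones were Cox6b2 (1.03 ± 0.20) and Cox7a2l (0.24 ± 0.087, adjusted p = 0.041). The nuclear median was 0.10. Library NTS7 set the number of higher members: without it 14 members were higher.

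Under FGF23, 17 members were lower and 1, Cox6b2, was higher, against 12.7% and 14.5% of all genes. Without NTS7, a vehicle library that enters this comparison only through the shared fit, the number of lower members was 26. The lower ones with all libraries were 11 mitochondrial genes and the nuclear genes Atp5s, Ndufs1, Sdha, Uqcrc2, Atp5b and Ndufv1. mt-Nd6 (-0.27, adjusted p = 0.37) and mt-Atp8 (-0.83, adjusted p = 0.14) did not pass. The mitochondrial median was -0.80 and the nuclear median -0.10. The FGF23 by disease interaction called no member, with 0 at an unadjusted p under 0.05 and 0 with DESeq2, against 0.0315% of all genes (5 genes). Its smallest p among members was that of mt-Nd6 (0.55 ± 0.28, adjusted p = 0.63).

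FGF23 against vehicle over 6 days gave no called member in either state of the C57BL/6JRj kidney, by edgeR or by DESeq2. In healthy mice 0.0% of all genes and 0 members passed, and 5 members had an unadjusted p under 0.05, all of them mitochondrially encoded and lower. That count was not set against the share of all genes at the same level and is not read as a result. The mitochondrial median was -0.38 (range -0.91 to -0.14, 13 of 13 negative) and the nuclear median -0.03 (57 of 81 negative). The smallest p was that of mt-Nd6 (-0.91 ± 0.20, adjusted p = 0.996), whose 4 vehicle and 3 FGF23 values are given above. It passed in a single alternative, the adjustment over 3 contrasts combined (adjusted p = 0.0054), a kind of adjustment the study describes. There the p-values are pooled with those of the averaged disease comparison, which called 23.6% of genes higher and 24.7% lower. Such pooling loosens the cutoff for FGF23, so the lower adjusted p is not added evidence.

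In anti-GBM mice 0.24% of all genes passed (38 genes, 37 of them higher with FGF23) and no member did. At an unadjusted p under 0.05 there were 23 members, all lower with FGF23, 18 nuclear and 5 mitochondrial. The share of all genes at that level is not given, so this count was not set against a background. The median over members was -0.25, against -0.00 over all genes, and 92 of 94 members were negative, against 50.3% of all genes. The exceptions were Cox4i2 (0.52 ± 0.34) and mt-Atp8 (0.03 ± 0.40). The smallest p was that of mt-Nd4 (-0.34 ± 0.12, adjusted p = 0.33), with 8446, 6860, 7143 and 8942 CPM with vehicle and 5717, 6179 and 6663 CPM with FGF23.

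By complex the nuclear medians were -0.23 in complex I, -0.18 in II, -0.25 in III, -0.26 in IV and -0.24 in V. Single libraries moved these values, and the median over members was -0.14 without NTS13, -0.17 without NTS8 and -0.33 without NTS7. Other mitochondrial genes had similar values, with 75 of 77 ribosomal protein genes (median -0.19) and 18 of 18 tricarboxylic acid cycle genes (median -0.19) negative and none called. Over all nuclear genes the median was -0.14 under 1500 exon bases and 0.01 at or above it, and nuclear members had -0.25 and -0.23. Spearman's rho between exon length and log2 fold change was 0.41 over the 81 nuclear members and 0.29 over all 15820 nuclear genes. The part of transcript length in these values was not tested. Summed fibroblast markers were 1064 to 1518 CPM with vehicle and 1494 to 1996 CPM with FGF23, leukocyte markers 241 to 359 and 321 to 342 CPM, and proximal tubule markers 18590 to 40771 and 25228 to 32454 CPM, each overlapping. Erythroid markers were 195 to 668 CPM with vehicle and 95.8 to 161 CPM with FGF23, without overlap. No marker of these lists was called in this comparison, and the part of these cell types in the subunit genes was not tested.

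In the BALB/c kidneys, Adriamycin nephropathy against healthy called no member, while 0.968% of all 16020 genes were higher and 0.968% lower. By edgeR 1 member had an unadjusted p under 0.05 and by DESeq2 none was called. The smallest p was that of Cox5a, a nuclear subunit of complex IV (-0.08 ± 0.033, adjusted p = 0.23), with group means of 276 and 289 CPM in healthy and 260 and 273 CPM in diseased mice with vehicle and FGF23, and the ranges of healthy (261 to 296 CPM) and diseased libraries (248 to 284 CPM) overlapped. Medians were 0.03 over the 12 mitochondrial members tested and 0.01 over the 82 nuclear ones. mt-Co1 had 30992 to 35940 CPM over all 16 libraries, and Ndufs1 344 to 402 CPM, with all 4 groups overlapping in each. Of the proximal tubule markers 1 of 14 was lower, Kap (-3.24 ± 0.32). Of the comparison genes the assembly factor Ndufaf7 (0.17 ± 0.031) and the anaplerotic enzyme Pcx (0.27 ± 0.066) were higher and Gabpb1 (-0.33 ± 0.059) was lower.

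With vehicle alone no member passed (0.119% of all genes higher, 0.212% lower), with 1 at an unadjusted p under 0.05, mt-Co3 (0.43 ± 0.18, adjusted p = 0.53). Under FGF23 none passed (0.462% higher, 0.237% lower), with 2 at an unadjusted p under 0.05 and the smallest p for the supercomplex factor Cox7a2l (0.11 ± 0.047, adjusted p = 0.35). A single FGF23 injection changed no member in healthy mice (0.0% of all genes; 2 members at an unadjusted p under 0.05, Ndufs5 at 0.20 ± 0.053, adjusted p = 0.69). In Adriamycin mice 0.0375% of all genes passed and no member did, with 7 at an unadjusted p under 0.05, a count not set against all genes.

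The smallest p there was that of Cox7c, a small complex IV subunit, with 97.6, 88.8, 89.1 and 92.7 CPM with vehicle and 105, 108, 107 and 108 CPM with FGF23. The difference of 0.22 ± 0.059 had an adjusted p of 0.49. The interaction called no gene (0.0%) and no member, with 0 members at an unadjusted p under 0.05 (Cox7a2l at 0.13 ± 0.066, adjusted p = 0.97). DESeq2 called no member in any of these comparisons. The anti-GBM and Adriamycin differences were not tested against each other, since strain and sex differ with the disease.

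In the slices, FGF23 against vehicle called no gene of 15090 (0.0%) by edgeR, with 3 members at an unadjusted p under 0.05, a count not set against all genes. No member of 90 tested was called by edgeR or by DESeq2. The study itself, which used DESeq2, reported the chemokine gene Ccl4 as raised in these slices. The smallest p was that of the complex I subunit Ndufv3 (0.26 ± 0.10, adjusted p = 0.85), with 73.7, 62.2, 70.4 and 70.6 CPM with vehicle and 95.9, 74.3, 87.0 and 73.4 CPM with FGF23, which overlapped. The median over members was 0.22 with 5 of 90 negative, and it rested on F1: without that library the median was 0.03 and 34 of 90 were negative. F1 had 5847 CPM of mt-Nd1 against 1790 to 2440 CPM in the other FGF23 slices, and 13244 CPM of mt-Co1 against 8039 to 8277 CPM in the other FGF23 slices. It also had the highest summed markers of the collecting duct (395 CPM, others 64.8 to 129 CPM), loop and distal tubule (6987 CPM) and proximal tubule (1322 CPM) of the 8 slices, whose part in these values was not tested.

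Tissue-restricted isoforms of complex IV differed between experiments. Cox4i2, the isoform of Cox4i1 known for its link to low oxygen, had 5 to 35 counts per library in the kidneys and 78 to 187 in the slices. Scaled for depth this was 0.331 to 1.65 CPM in all kidney libraries and 7.10 to 16.2 CPM in the slices, while Cox4i1 had 477 to 786 CPM in the anti-GBM experiment, 626 to 703 CPM in the Adriamycin experiment and 255 to 481 CPM in the slices. Cox8b, a heart, muscle and brown fat isoform, had 33 to 157 counts in every BALB/c library, 0 to 22 in the C57BL/6JRj libraries and 0 to 3 in the slices. Its highest C57BL/6JRj value was in NTS2. Cox7a1, another muscle-type isoform, had 10.6 to 13.8 CPM in BALB/c, 5.67 to 11.7 CPM in C57BL/6JRj and 1.17 to 3.28 CPM in slice libraries. Cox6a2 stayed between 0.381 and 1.94 CPM throughout. Within the anti-GBM experiment the widely expressed partners Cox6a1 (345 to 559 CPM), Cox7a2 (162 to 268 CPM) and Cox8a (289 to 502 CPM) were far more abundant than Cox6a2, Cox7a1 and Cox8b. Skeletal and cardiac muscle markers summed to 0.566 to 1.90 CPM in C57BL/6JRj, 1.86 to 5.42 CPM in BALB/c and 1.35 to 9.83 CPM in slice libraries, with Myh4 at 0 in every group. None of these isoforms was called in any comparison, and between experiments strain, sex and culture cannot be told apart.

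Promoters of the nuclear members were searched for 4 short sequence elements. In the RefSeq promoter table (GRCm38.p6, 250 bases before to 50 after the start), 67 of the 85 nuclear members were found by symbol or gene identifier. Each element was searched as exact letters on both strands, and no matches of different elements overlapped. At least 1 element was present in 21 of the 67 members. GCGCATGCG, the core of the site of NRF1, was present in 8 of 67 members (11.9%) and 1.95% of the 27025 genes in the table. AAGATGGCG, a YY1 site, was present in 7 members (10.4%) against 1.64%, CCGGAAGT, an ETS family site read by GABPA, in 5 (7.46%) against 4.31%, and TCAAGGTCA, the site of estrogen-related receptors, in 2 (2.99%) against 0.466%. Of the 11 members lower in anti-GBM disease, 6 were in the table and 1 held an element, Ndufa9 with the YY1 letters. Stretches with 1 element each are shown in capitals for members of complexes IV and V.
Cox6a1 (chr5:115349082-115349150, minus strand, NRF1 letters): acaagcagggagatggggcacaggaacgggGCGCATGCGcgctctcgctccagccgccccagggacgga
Atp5j (chr16:84835026-84835094, minus strand, YY1 letters): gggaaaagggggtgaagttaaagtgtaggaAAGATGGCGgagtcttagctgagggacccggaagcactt
Atp5g3 (chr2:73911340-73911408, minus strand, ERR letters on the other strand): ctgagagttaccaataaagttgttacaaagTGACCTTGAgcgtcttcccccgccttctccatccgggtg
Cox6a1, Atp5j and Atp5g3 were not called in any comparison. These matches describe letters within the windows and say nothing of binding in these kidneys.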

How the data were processed

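RNA came from a fragment of the kidney, or from slices, and was sequenced as stranded, poly(A)-selected mRNA libraries in 58-base paired reads. The authors deposited 1 table of raw counts per gene, which they made by aligning reads to GRCm38 with STAR 2.7.9a and counting with featureCounts 1.5.1. Whether counting used strand is not given in the sources used here. Kidney columns were matched to groups through the group headings the study gives for its columns, and slice columns by name. The name of the column called NTS14 here repeats the number of another library (NTS4), and its group, anti-GBM with FGF23, rests on that heading. Counts were tested as deposited in R 4.3.3 with edgeR 4.0.16 (quasi-likelihood test, TMM factors, filterByExpr with a minimum count of 10), in 1 fit per experiment over its groups, with Benjamini-Hochberg adjustment over all tested genes of a comparison. A gene was called at an adjusted p under 0.05. Counts at an unadjusted p under 0.05 are given without the share of all genes and are not read as results. CPM values use TMM-scaled library sizes, and TPM use exon lengths of GENCODE M21. The study calls its slice replicates biologically independent. Whether a vehicle and an FGF23 slice share a mouse is not given in the sources used here. Each p-value sets a group difference against the variation between these libraries, and for the slices it treats every library as independent. Named genes are every mitochondrially encoded member, called members (up to 10 by smallest p in each direction, with others listed after their values were seen; 1 is not reported here), the complex IV isoform pairs, Atpif1 and, where nothing was called, the member with the smallest p. Members and gene lists were chosen with earlier results of these data known. Alternatives were RLE factors, library sizes without mitochondrial genes, other count filters, DESeq2 1.42.0, a robust fit, only the groups compared, a fold cutoff, a combined adjustment and leaving out each library. The fits were checked on simulated data.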

Additional observations from a re-analysis of the deposited data

Results flagged for a closer look

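Among 248 group values checked (groups of 4 libraries, for the named genes and the mitochondrial share), 26 held a library far from the others. The checks reuse the same libraries, and some rest on single counts, so this number was not set against chance. In the FGF23 slices the library was F1 for the mitochondrial share (3.67%) and for mt-Nd1 (5847 CPM), mt-Nd2 (1731 CPM), mt-Nd4 (4928 CPM), mt-Cytb (9768 CPM), mt-Co1 (13244 CPM), Ndufs1 (99.9 CPM), Sdha (437 CPM), Uqcrc2 (221 CPM), Uqcrfs1 (143 CPM) and Cox7a2l (75.7 CPM), each above the other slices. For mt-Atp8 (0.211 CPM) and mt-Nd3 (0.0704 CPM) it was F2, the only FGF23 slice with a count. In the vehicle slices V4 was low for Ndufa10 (74.2 CPM) and alone had a count of mt-Atp8 (0.0756 CPM).

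In anti-GBM vehicle kidneys NTS7 was low for Uqcrc2 (327 CPM, others 404 to 420) and Atp5a1 (1689 CPM, others 2049 to 2067), NTS5 was high for mt-Nd2 (7399 CPM) and NTS6 low for mt-Nd4l (0.579 CPM). In healthy vehicle kidneys NTS4 was low for Cox7c (95.0 CPM). In the BALB/c groups Ad1 was high for mt-Nd1 (12562 CPM), Ad5 for the mitochondrial share (9.24%) and Ad9 for mt-Co1 (34967 CPM), while Ad6 was low for Uqcrfs1 (317 CPM), Ad13 for Ndufs1 (344 CPM) and Ad16 for Atp5s (12.4 CPM).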

How the results depend on the processing

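In anti-GBM disease averaged over treatments, all 13 mitochondrial members were lower under every alternative that tested them (11 of 11 with at least 10 counts in every library), apart from a cutoff on fold size. Of the nuclear calls, Ndufs1, Sdha, Atp5s, Uqcrc2, Atp5b and Cox6b2 held under all 22 settings without a fold cutoff; the other 6 were lost under some, with nuclear lower calls from 5 to 16. With an absolute log2 fold change above 1, the averaged counts were 3 lower and 0 higher, 4 and 1 with vehicle, and 2 and 0 under FGF23. With at least 10 counts in every library, 2 members were higher in the averaged comparison and 7 with vehicle, and with only the groups compared 1 was higher with vehicle. Adjustment over 3 contrasts combined called 1 member lower with FGF23 in healthy mice. Leaving out 1 library at a time gave 18 to 29 lower and 1 to 2 higher (2 without NTS1, NTS7, NTS9 or NTS13) in the averaged comparison. With vehicle it gave 14 to 16 lower and 1 to 14 higher (14 without NTS7, 4 without NTS5, 1 without NTS2, NTS6, NTS8 or NTS10). Under FGF23 it gave 12 to 26 lower (26 without NTS7) and 1 to 1 higher. NTS7 is a vehicle library and enters the comparison under FGF23 only through the shared fit. The cause of these moves was otherwise not tested. Apart from mt-Nd6 under the combined adjustment, all other comparisons stayed at 0 under every alternative. The slices share replicate numbers, and the fit with the replicate block called 0 members; same-numbered slices correlated at 0.107, 0.105, -0.105 and 0.112, and 3 of 4 vehicle slices correlated best with their own number, so pairing stays unsettled and was not used. In the kidney experiments no paired analysis was possible because the columns carry no shared replicate numbers. Depth limits the low-count mitochondrial genes and the isoforms under 1 CPM.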
